A study of Mus musculus with 1479 samples.

Results

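Kcnj8, Abcc9, Rgs5, Rgs4, Higd1b, Cox4i2 and Ndufa4l2 are genes used to recognise pericytes, the cells that wrap capillaries and lie in their basement membrane. They were followed through 1479 single cells of the mouse urinary bladder, as 7 of the 46517 gene rows of the count table, 29351 of which had a read in at least 1 cell. The 7 genes were chosen by name with their levels over the cell clusters already known, so the differences between clusters and the co-expression given here are descriptions and were not used as tests. All cells came from male mice of 10 to 20 weeks, and each cell was sorted into a plate well and made into its own Smart-seq2 library, a full-length cDNA method without molecular identifiers. The lines were Acta2GFP, Cspg4dsRED, PdgfraGFP and PdgfrbGFP (810 cells), in which a fluorescent reporter marks cells that use the gene in the name of the line (Acta2, Cspg4, Pdgfra, Pdgfrb), and C57BL6 without a reporter. The sort took cells by reporter or by antibody to a PDGF receptor and left out cells with CD31, the endothelial surface protein, so it enriched for mesenchymal cells and its shares are not those of the tissue. The study called cluster 10 vascular mural cells, that is pericytes and vascular smooth muscle cells, and took the other 10 clusters (1354 cells) as fibroblasts. No label names an animal. The mouse line is the unit here on the assumption that lines are independent, although each line had its own way of sorting, some lines had plates of their own and the study also bred lines together.

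KATP channels are potassium channels built from pore-forming Kir6 subunits and regulatory sulfonylurea receptors, and they open when cellular ATP falls, which hyperpolarises the cell and relaxes vessel walls. Kcnj8 encodes the pore subunit Kir6.1 and Abcc9 the receptor SUR2, the pair known as the vascular form. Rgs5 and Rgs4 encode regulators of G protein signalling, which shorten the signal of vasoconstrictor receptors. Cox4i2 and Ndufa4l2 encode alternative versions of subunits of the mitochondrial respiratory chain, Higd1b a small membrane protein of the HIG1 family, and all are known as genes of pericytes in other organs.

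The KATP genes and the RGS genes each form a pair of neighbours in the genome, which is why the sequences before their starts are shown. Abcc9 (ENSMUSG00000030249, chr6:142587862-142702315, minus strand) and Kcnj8 (ENSMUSG00000030247, chr6:142564837-142571614, minus strand) were 16247 bases apart on GRCm38 and read in the same direction. Rgs5 (ENSMUSG00000026678, chr1:169655501-169695813, plus strand) and Rgs4 (ENSMUSG00000038530, chr1:169741477-169747642, minus strand) were 45663 bases apart and pointed towards each other. The 250 bases before the RefSeq start of each gene (GRCm38.p6) are given 5′ to 3′ on the strand of the gene, at chr6:142571615-142571864 for Kcnj8, chr6:142702275-142702524 for Abcc9, chr1:169655251-169655500 for Rgs5 and chr1:169747643-169747892 for Rgs4, with matches to 5 searched motifs in capitals. The RefSeq start of Abcc9 lies inside the gene span given above, so the last bases of its window fall within that span.
Kcnj8: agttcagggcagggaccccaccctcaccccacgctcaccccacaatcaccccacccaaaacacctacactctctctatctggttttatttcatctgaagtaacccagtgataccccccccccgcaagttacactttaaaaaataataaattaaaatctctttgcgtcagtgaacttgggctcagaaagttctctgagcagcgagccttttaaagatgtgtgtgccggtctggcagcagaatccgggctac
Abcc9: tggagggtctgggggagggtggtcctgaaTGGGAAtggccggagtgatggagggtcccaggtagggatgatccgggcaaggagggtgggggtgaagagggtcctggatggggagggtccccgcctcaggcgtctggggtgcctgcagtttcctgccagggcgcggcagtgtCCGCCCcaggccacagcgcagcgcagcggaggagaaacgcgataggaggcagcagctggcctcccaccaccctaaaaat
Rgs5: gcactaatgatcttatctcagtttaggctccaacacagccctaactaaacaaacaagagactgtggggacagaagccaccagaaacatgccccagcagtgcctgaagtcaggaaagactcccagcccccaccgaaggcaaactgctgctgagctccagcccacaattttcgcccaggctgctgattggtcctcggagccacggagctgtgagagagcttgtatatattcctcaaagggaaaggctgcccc
Rgs4: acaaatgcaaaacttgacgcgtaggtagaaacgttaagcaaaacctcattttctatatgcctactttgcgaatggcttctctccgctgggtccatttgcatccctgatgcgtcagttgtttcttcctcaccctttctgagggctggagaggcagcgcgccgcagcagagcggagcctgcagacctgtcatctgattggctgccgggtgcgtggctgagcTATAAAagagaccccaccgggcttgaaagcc
Both strands were searched for ACGTG, the core of a hypoxia response element, for TGGGAA, the site of the Notch partner RBPJ, for the GC box GGGCGG, for TATAAA and for the CArG box of serum response factor. Abcc9 had TGGGAA near the far end of the window, and the GC box on the other strand, starting 79 bases before the RefSeq start. Rgs4 had TATAAA starting 31 bases before its start, and Kcnj8 and Rgs5 had no match in this window. Among 32851 mouse promoters of the same length, 21.6% held TGGGAA, 32.7% the GC box, 12.4% TATAAA, 16.6% ACGTG and 1.47% the CArG box. The C and G content was 66.8% for Abcc9 and 49.2% for Kcnj8, against a median of 52.4% over all promoters. Higd1b (chr11:102835849-102838040, plus strand), Cox4i2 (chr2:152754173-152765037, plus strand) and Ndufa4l2 (chr10:127514967-127517154, plus strand) are named only.

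A level here is the number of reads of a gene per 500000 reads from mouse genes in the same cell. Cells were averaged within each line first, and the mean and SD were then taken across those lines that had at least 3 cells in the cluster. Reads from mouse genes ran from 48455 to 1433402 per cell, with medians of 128369 in cluster 10 and 222572.5 in the fibroblast clusters. Cluster 10 had cells of 4 lines, 65 from Cspg4dsRED, 45 from PdgfrbGFP, 12 from Acta2GFP and 3 from C57BL6, and none from PdgfraGFP. The C57BL6 value thus rested on 3 cells, and values without it are given beside the results it moves. The label of cluster 10 was set beside marker genes. This is no independent check, since the clusters were made from these counts and the study named them by known markers. The summed level of 8 smooth muscle genes was 6555 to 12210.5 over its lines and 165.6 to 229.4 in the fibroblast clusters. Myh11, the smooth muscle myosin, had a read in all but 1 of the cells. In the fit described below all 8 were called higher, beside 2.28% of all 13861 genes tested. Of the 8, Myocd did not pass the low-count filter in the fit among fibroblast clusters. The summed level of 5 fibroblast genes was 253.8 to 1309 in cluster 10 and 8794 to 12022 in the fibroblast clusters. The 6 endothelial genes summed to 11.4 to 52.9 in cluster 10 and 33.5 to 80.7 in the fibroblast clusters, with none of them at 0. Of these, 5 were tested and Tek, a receptor of endothelial cells, was called lower in cluster 10 (log2 fold change -5.29, SE 1.45, by edgeR), while DESeq2 called 2. Over all genes tested edgeR called 6.06% lower, and DESeq2 called 2895 genes. The part of these genes in the results was not tested.

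**Figure D1:**
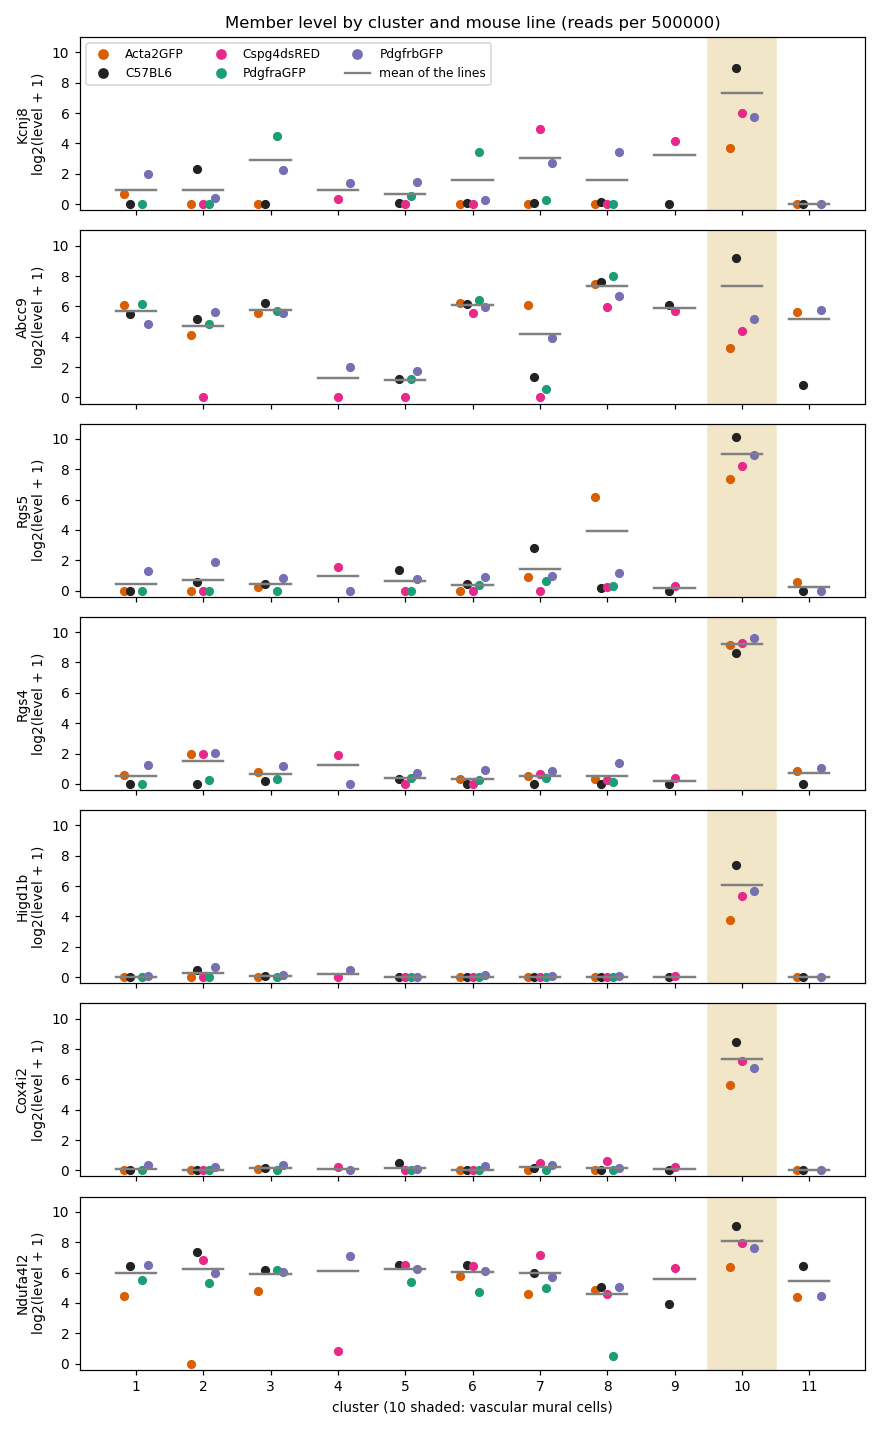
Level of each gene (reads per 500000, as log2 of the level plus 1) in clusters 1 to 11, one panel per gene; points are mouse lines with at least 3 cells in the cluster and grey bars the mean of the lines, with cluster 10 shaded. Rgs5, Rgs4, Higd1b and Cox4i2 stood near 0 outside cluster 10 save for Rgs5 of Acta2GFP in cluster 8 (70.5, from 1 of 11 cells), whereas Abcc9 and Ndufa4l2 were spread over the fibroblast clusters and the C57BL6 point (3 cells) was highest in cluster 10 for 6 of the 7 genes.

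The first question was where each gene was found. Rgs4, Rgs5, Cox4i2 and Higd1b were found almost entirely in cluster 10, Kcnj8 at a higher mean level there but also in scattered fibroblasts (2586 of its reads were mural and 2510 were not), Ndufa4l2 in both with a higher level in cluster 10, and Abcc9 in fibroblasts more widely than in mural cells. Rgs4 had the most even level. It stood at 567 in Acta2GFP, 399 in C57BL6, 609.7 in Cspg4dsRED and 787 in PdgfrbGFP, a mean of 591 (n = 4 lines, per kb of exon 190.7 ± 51.3 SD), against 0.662 ± 0.456 in the fibroblast clusters of the same lines. Every line of cluster 10 was above every fibroblast value, though the share of all genes that separate in this way was not counted. Rgs5 stood at 166.2, 1116, 297.4 and 488 in the same order of lines, a mean of 517 ± 421 against 2.46 ± 3.01. Its lowest line was still above every fibroblast value, of which the highest was 6.93 in Acta2GFP.

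The mitochondrial genes differed in how far they were confined to cluster 10. Cox4i2, the alternative isoform of a cytochrome c oxidase subunit, had levels of 48.2 in Acta2GFP, 355 in C57BL6, 145.9 in Cspg4dsRED and 106.1 in PdgfrbGFP, a mean of 163.7 ± 133.4 (SD, n = 4 lines) against 0.138 ± 0.0924 in the fibroblast clusters. Higd1b stood at 12.4, 166.7, 39.1 and 49.6 in the same order, a mean of 66.9 ± 68.3 against 0.0417 ± 0.0365. For both genes all lines of cluster 10 were above all fibroblast values, although the SD was near the mean. Without the share over all genes, nothing is read from such a separation, here or for the other members. Ndufa4l2, the relative of the respiratory chain subunit Ndufa4, stood at 82.7, 539, 241.9 and 192.7, a mean of 264.1 against 57.5 ± 23.1 in the fibroblast clusters. The highest fibroblast line reached 75.1, below the lowest line of cluster 10, and cells with at least 10 Ndufa4l2 reads made up 43.5% of fibroblast-cluster cells.

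The KATP genes showed the widest spread between lines relative to their means. Kcnj8 stood at 12.2 in Acta2GFP, 510.2 in C57BL6, 64.3 in Cspg4dsRED and 53.4 in PdgfrbGFP, which per kb of exon is a mean of 62.8 ± 92 (SD, n = 4 lines) against 1.69 ± 2.32 in the fibroblast clusters. The groups overlapped, because the Cspg4dsRED fibroblasts reached 12.7. Abcc9 stood at 8.77, 577, 19.5 and 35.7, a mean of 160.3 ± 278.3 against 51.8 ± 11. It was lower in cluster 10 than in the fibroblasts of the same line for 3 of the 4 lines, with C57BL6 as the exception. Without the 3 C57BL6 cells the cluster 10 mean was 17 ± 10.8 per kb of exon for Kcnj8, 3.69 times smaller, and the level of Abcc9 was 21.3 ± 13.6, which was 7.52 times smaller (n = 3 lines). The other means moved less, to 317.3 for Rgs5 (per kb of exon 69.8 ± 35.6), 100.1 ± 49.1 for Cox4i2, 33.7 ± 19.2 for Higd1b, 172.4 ± 81.5 for Ndufa4l2 and 655 ± 116.4 for Rgs4.

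In a fit over all genes, reads were summed per line and class and compared by the quasi-likelihood test of edgeR, blocked on line, which gave for cluster 10 against the fibroblast clusters a log2 fold change of 10.83 (SE 1.41) for Higd1b, 10.49 (SE 1.04) for Cox4i2, 10.45 (SE 0.72) for Rgs4, 8.75 (SE 0.93) for Rgs5, 5.84 (SE 1.39) for Kcnj8 and 2.06 (SE 0.53) for Ndufa4l2. Abcc9 had a value of -0.42 (SE 0.92). A gene was called at an adjusted p under 0.05 (Benjamini-Hochberg over all genes tested) and a log2 fold change of at least 2 in either direction. By this rule 6 of the 7 genes were called higher and 0 lower, beside 2.28% of all 13861 genes tested called higher and 6.06% called lower. Nothing is read from that count, since the genes were selected on this contrast. Kcnj8, Higd1b and Cox4i2 did not pass the low-count filter in the later fit among fibroblast clusters. They thus entered the present fit through cluster 10, and their calls as higher are not a result. Without C57BL6 only 4 were called: Kcnj8 (4.22) and Ndufa4l2 (1.82, under the fold threshold) were not, and Higd1b was at 9.85. Ndufa4l2 was also not called without Cspg4dsRED (2.12), without PdgfrbGFP (2.13) or with no filter on low counts (1.79). With sums per plate and line 4 were called, Kcnj8 (4.58) was not, and Higd1b did not pass the filter. Over all genes tested the median value was -0.81 on the log2 scale, and with the median gene placed at 0 the value of Abcc9 turned to 0.39 while the other 6 stayed positive. The value of Abcc9 was -1.40 without C57BL6 and 0.46 without Acta2GFP, so its direction changed with the scaling and with single lines.

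To set aside differences in depth, each cell was thinned to 50000 reads before cells with a read were counted. In cluster 10 the share was 84.8% for Rgs4 (exact 95% interval 77.3% to 90.6%), 63.2% for Ndufa4l2 (54.1% to 71.6%), 55.2% for Cox4i2 (46% to 64.1%) and 45.6% for Rgs5 (36.7% to 54.7%). It was 21.6% for Abcc9 (14.7% to 29.8%), 20% for Higd1b (13.4% to 28.1%) and 19.2% for Kcnj8 (12.7% to 27.2%). Most mural cells therefore had a Rgs4 read, and most had none of Kcnj8. In the fibroblast clusters the share was 58.8% for Ndufa4l2, 42.2% for Abcc9 and at most 6.68% for the others. Before thinning the shares were 36.8% for Abcc9, 55.2% for Rgs5 and 26.4% for Kcnj8. These intervals cover counting error only, as reads without molecular identifiers are not separate molecules.

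Single reads of mural genes in fibroblasts moved with the position of the cell on its plate. Among fibroblast-cluster cells with no cluster 10 cell in their plate row or column, 1.91% had a Rgs4 read before thinning (0.919% to 3.48%, 10 of 524 cells), and among those with at least 1 such cell the share was 31.9% (28.8% to 35.2%, of 830 cells). Rgs5 went from 3.05% to 22.7%, Cox4i2 from 0.954% to 10.4% and Higd1b from 0% (exact upper limit 0.702%) to 5.18%. Kcnj8 was at 7.82% and 10.8% with overlapping intervals, while Abcc9 (72.3% and 58.2%) and Ndufa4l2 (79.8% and 70.5%) were lower in the second set. Without plate 881s the shares were 2.16% and 22.5% for Rgs4 and 3.03% and 12% for Rgs5. For Cox4i2 they were then 1.08% and 3.08% and for Higd1b 0% and 0.769%, with overlapping intervals for both genes. The 2 sets mix 6 plates in different shares, and within plate 881s Abcc9 was at 90.3% and 91.1%. The cause of the reads was not tested. On plate 881s, where the gap was widest for Rgs4, 0 of 62 cells without such a neighbour had a Rgs4 read (exact upper limit 5.78%) and 66.1% of 180 with one had it. With a minimum of 10 reads, 2 fibroblast-cluster cells were left for Rgs4, 7 for Rgs5 and 0 for Higd1b and Cox4i2 out of 1354, so 10 reads or more served as the mark of a positive cell here, a minimum chosen after seeing the data. For Abcc9 this also mattered in cluster 10, where on plate 881s 19 of 20 mural cells had an Abcc9 read but 3 had at least 10.

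**Figure D2:**
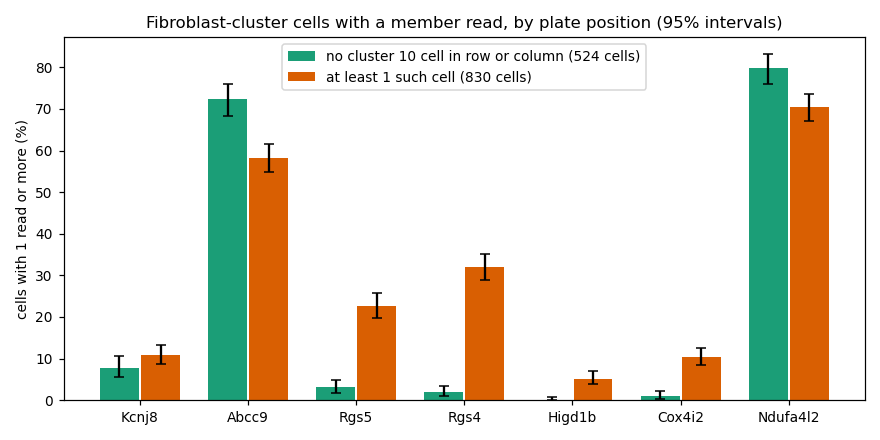
Share of fibroblast-cluster cells with 1 read or more of each gene, in 524 cells that had no mural cell in their plate row or column and 830 that had at least 1; error bars are exact 95% intervals. Rgs5, Rgs4, Higd1b and Cox4i2 were at 22.7%, 31.9%, 5.18% and 10.4% in the second set and at 3.05%, 1.91%, 0% and 0.954% in the first, and Abcc9 and Ndufa4l2 were lower in the second set.

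The next question was whether the genes fell in the same mural cells. They did not mark 1 shared set of cells. In cluster 10, 99 cells had at least 10 reads of Rgs4, 64 of Ndufa4l2, 60 of Cox4i2, 44 of Rgs5, 21 of Higd1b, 19 of Kcnj8 and 15 of Abcc9. Only 2 cells had all 7, 2 had 6, 9 had 5 and 22 had 4, whereas 27 had 1 and 8 had none. In the fibroblast clusters 13 of 1354 cells had 3 of the genes and none had more. The reads of the rarer genes sat in few cells: the 5 cells with the highest level held 71.4% of the summed Abcc9 level of cluster 10, 55.3% of Higd1b, 53.8% of Kcnj8 and 33.1% of Rgs5, but 13.2% of Rgs4.

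**Figure D3:**
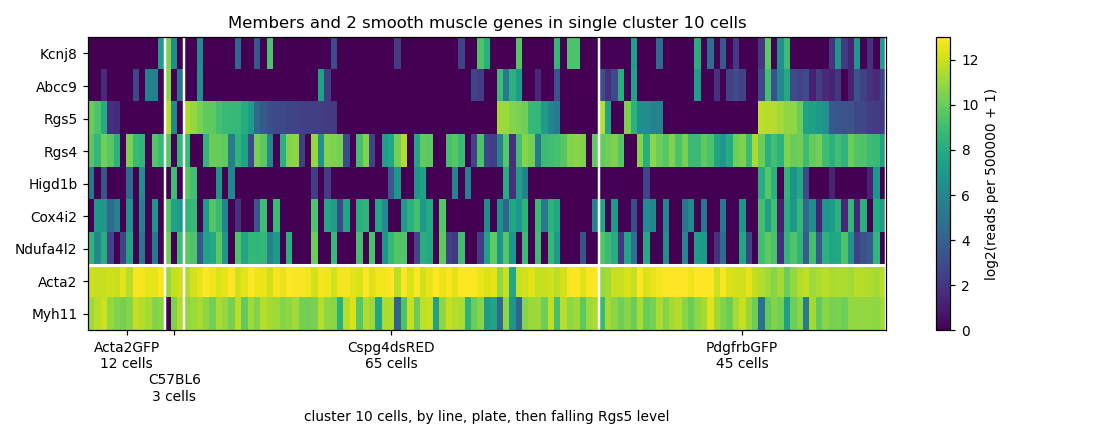
Levels in the single cells of cluster 10 (columns, grouped by line and plate and ordered by falling Rgs5 level within a plate) for the 7 genes and for Acta2 and Myh11, as log2 of reads per 500000 plus 1. Rgs4, Acta2 and Myh11 fill most columns, while Kcnj8, Abcc9 and Higd1b fill few and only partly the same ones.

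Over the cells of cluster 10 (65, 45, 12 and 3 per line), Pearson correlations of log2(level + 1) had a median of 0.13 over the 21 pairs, from -0.05 to 0.46. The highest was between Cox4i2 and Ndufa4l2 (r = 0.46), followed by Rgs5 with Higd1b (0.40), Rgs5 with Ndufa4l2 (0.39), Kcnj8 with Abcc9 (0.39) and Abcc9 with Rgs5 (0.36). Rgs4 stood apart, with r between -0.01 and 0.16 to the other 6, although it neighbours Rgs5 in the genome (r = 0.05). Within lines its r ran from -0.1 to 0.17 in Cspg4dsRED and from -0.24 (Kcnj8) to 0.14 (Cox4i2) in PdgfrbGFP, where it was -0.18 with Rgs5. Kcnj8 had r = 0.13 with Rgs5 and between -0.05 and 0.04 with Rgs4, Higd1b, Cox4i2 and Ndufa4l2. These cells shared 6 plates and differed in depth, and r with the log2 depth of the cell was 0.13 for Kcnj8, 0.18 for Rgs4 and 0.32 for Rgs5. Within the 65 Cspg4dsRED cells and the 45 PdgfrbGFP cells the value was 0.38 and 0.60 for Cox4i2 with Ndufa4l2, 0.32 and 0.59 for Rgs5 with Higd1b, and 0.20 and 0.60 for Kcnj8 with Abcc9. Without plate 881s, Kcnj8 with Abcc9 was at 0.30 and Rgs5 with Higd1b at 0.29.

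Against the contractile genes of smooth muscle the 7 genes also differed. With Acta2, the smooth muscle actin, r was -0.53 for Rgs5, -0.52 for Abcc9, -0.37 for Ndufa4l2, -0.35 for Cox4i2 and -0.30 for Higd1b, and it was -0.16 for Kcnj8 and -0.08 for Rgs4. Both lines with at least 20 cluster 10 cells gave a negative value for Rgs5 (-0.45 and -0.63) and Abcc9 (-0.54 and -0.50). With Myh11 the values were -0.42 for Abcc9, -0.27 for Kcnj8 and Rgs5 and 0.05 for Rgs4. All cells positive for both KATP genes carried between 472 and 2111 Acta2 reads, among 60306 to 439747 reads per cell. Their Myh11 reads ran from 0 in the C57BL6 cell and 3 in a Cspg4dsRED cell to 1058. These counts are not scaled to depth and do not place the cells against the mean of cluster 10.

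Gene by gene, the genes most alike to each were ranked by r averaged over the Cspg4dsRED and PdgfrbGFP cells, among 5128 genes with a read in at least 10 cluster 10 cells of both lines. For Rgs4 these were Pln, the phospholamban that restrains the calcium pump of muscle (r = 0.35), Itpk1 and Nrip2 (both 0.34). For Ndufa4l2 and Cox4i2 both lists held Ano1, a calcium-activated chloride channel (0.56 and 0.41), and the cell cycle gene Ccnd1 appeared for Rgs5 (0.47), Higd1b (0.49) and Ndufa4l2 (0.48). Apold1 (0.52) and Nde1 (0.51) led for Higd1b. The genes nearest to Abcc9 were Creg1 (0.45), Pcdh18 (0.43) and Fbln2 (0.43), an extracellular matrix gene. All 3 genes nearest to Abcc9 had a higher mean level over cells in the fibroblast clusters than in cluster 10 (Fbln2, 619 and 18.6). This also held for Mfap2 (143.4 and 9.59) and Gm28592 (51.6 and 12.1) near Rgs5, Cd248 (783 and 132.2) and Fxyd5 (229.1 and 69.3) near Cox4i2, and Nde1 (29.1 and 19.2) near Higd1b. The genes nearest to Kcnj8 were Dcaf13 (0.44), Gdap2 (0.40) and Tns3 (0.38).

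The pairing of the KATP subunits was then followed cell by cell. In cluster 10, 19 cells were positive for Kcnj8 and 15 for Abcc9, and 8 for both, which is 42.1% of the Kcnj8 cells and 53.3% of the Abcc9 cells. The 8 cells came from 3 lines and 5 plates, 1 from C57BL6, 5 from PdgfrbGFP and 2 from Cspg4dsRED. The C57BL6 cell had 483 Kcnj8, 565 Abcc9 and 1087 Rgs5 reads among 166025 and no Myh11 read. Next came a PdgfrbGFP cell with 396 Kcnj8 and 1318 Rgs5 reads. Of the 8 cells, 7 were positive for Rgs5 and 1 had no Rgs5 read, and Rgs4 was at 0 in 2 of them.

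**Figure D4:**
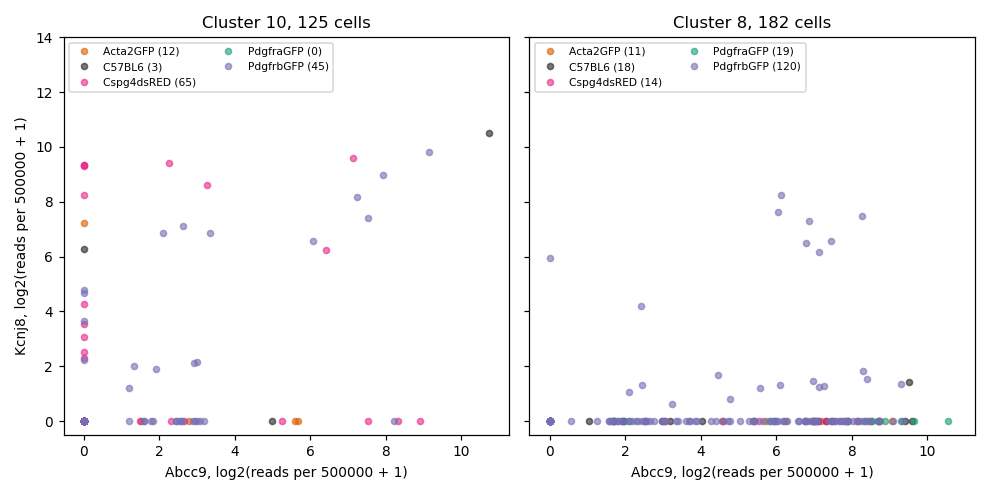
Kcnj8 against Abcc9 in single cells of cluster 10 (left) and cluster 8 (right), each axis log2 of reads per 500000 plus 1, coloured by mouse line with the number of cells; points at 0 overlap. In cluster 10 the cells with high Abcc9 are about evenly split between high Kcnj8 and none, while in cluster 8 most cells lie along the Abcc9 axis with Kcnj8 at 0.

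The paralogous subunits were read in the same cells. Abcc8, which encodes SUR1, the receptor of the pancreatic beta cell, was at 0 in C57BL6, 33.7 in Cspg4dsRED, 31.5 in PdgfrbGFP and highest in Acta2GFP, a mean of 57.5 ± 73.3 (SD, n = 4 lines) against 0.0588 ± 0.0524 in the fibroblast clusters. It did not pass the filter on low counts and has no fold change. Its reads came from 14 positive cells with a median of 103.5 reads and a lowest of 20, all 14 positive for Acta2 and Myh11, 13 for Rgs4 and 5 for Rgs5. Of the Abcc8 cells 2 were positive for Kcnj8, and 0 of the 14 for Abcc9. Per kb of exon, which allows genes to be compared, the level was 69 for Abcc9 and 0 for Abcc8 in C57BL6, 4.27 and 3.9 in PdgfrbGFP, 2.33 and 4.16 in Cspg4dsRED, and 1.05 and 20.4 in Acta2GFP. Abcc9 was thus the higher of the receptor genes in 2 lines and Abcc8 in the other 2. Kcnj8 stood at 4.8, 200.2, 25.2 and 21 per kb in Acta2GFP, C57BL6, Cspg4dsRED and PdgfrbGFP. Kcnj11, the other Kir6 gene, had 23 reads in all, in 4 mural cells, and none in the fibroblast clusters. Of the 20 mural cells positive for a Kir6 gene, 10 were positive for a receptor gene as well.

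**Figure D5:**
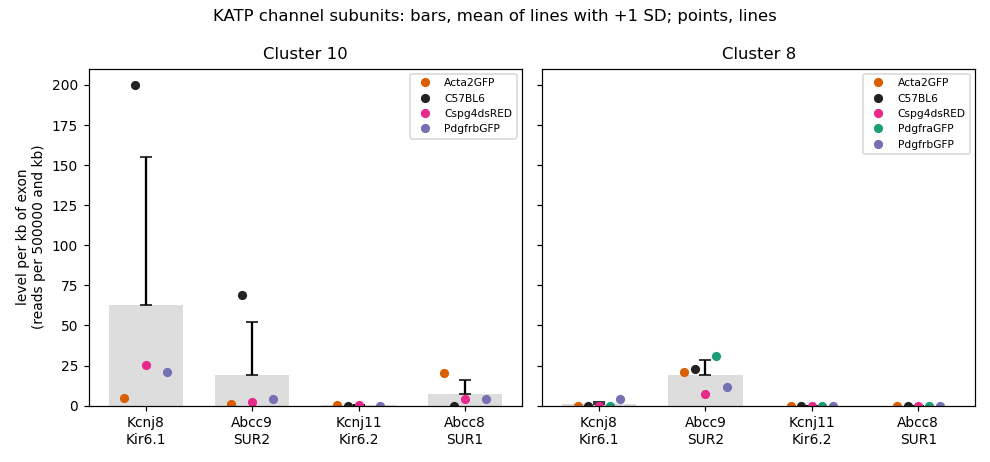
Level per kb of exon of the 4 KATP subunit genes in cluster 10 (left) and cluster 8 (right); bars are the mean of the lines, error bars 1 SD upwards and points single lines. In cluster 10 the C57BL6 points (3 cells) lie at 200.2 for Kcnj8 and 69 for Abcc9, above all others, and Abcc8 is present in 3 lines, while in cluster 8 Abcc9 is the subunit found in every line.

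Abcc9 without Kcnj8 was found in cells of most fibroblast clusters, though clusters 4 and 5 had 0 cells positive for Abcc9, and also in 7 of the 15 Abcc9 cells of cluster 10. Among the fibroblast clusters Abcc9 was highest in cluster 8, at 260.6 in PdgfraGFP, 193.6 in C57BL6, 173.4 in Acta2GFP, 99.8 in PdgfrbGFP and 62.2 in Cspg4dsRED, a mean of 157.9 ± 78.4 (SD, n = 5 lines). Among cells with no mural cell in their plate row or column the mean was 251.2 over 3 lines, from 110.9 in PdgfrbGFP to 471 in PdgfraGFP (8 cells). Kcnj8 in cluster 8 was at 0 in Acta2GFP, Cspg4dsRED and PdgfraGFP, 0.094 in C57BL6 and 9.84 in PdgfrbGFP. Abcc9 was thus present in all 5 lines, though 9 of the 19 PdgfraGFP cells had no Abcc9 read. The Kcnj8 level came nearly all from PdgfrbGFP, with 8 positive of 120 cells, and the other lines, with 11 to 19 cells each, had 0 positive cells. Each of these lines alone had too few cells to show a share of that size, and the difference between lines was not tested. Cells positive for Abcc9 made up 56.6% of cluster 8 (49.1% to 63.9%) and those positive for Kcnj8 4.4% (1.92% to 8.48%). Of these 8 Kcnj8 cells 6 were positive for both, and 97 cells had Abcc9 alone. In a fit over all genes of cluster 8 against clusters 1 to 4, 6, 7, 9 and 11, which left out cluster 5, the log2 fold change was 1.50 (SE 0.29) for Abcc9 and -1.62 (SE 0.87) for Ndufa4l2. With a log2 fold change of at least 1 and an adjusted p under 0.05 by edgeR, 0 of the 4 members that passed the low-count filter were called, 1 had an unadjusted p under 0.05 and 1 was called by DESeq2, which called 702 genes in all and gave no adjusted p for another of the 4. With the median gene placed at 0 Abcc9 was called. All genes gave 0.0217% called higher and 0% called lower of 13815 tested. Kcnj8, Higd1b and Cox4i2 did not pass that filter.

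Ordered by level, Abcc9 in cluster 10 (160.3 ± 278.3) and cluster 8 (157.9 ± 78.4) did not differ beyond their spread. With the 3 C57BL6 cells left out of cluster 10 alone, it stood at 21.3 ± 13.6 (n = 3), lower than clusters 8, 6, 9, 3 and 1 by more than the larger SD and within the spread of clusters 11, 2 and 7. The step from cluster 8 to cluster 6 (67.3 ± 14.2, n = 5) was larger than the SD of either. Clusters 6, 9 (58.6 ± 11.5, n = 2), 3 (54.4 ± 12.5, n = 4), 1 (51.9 ± 20.1, n = 4), 11 (34.2 ± 29.1, n = 3), 2 (25.3 ± 18.2, n = 5) and 7 (16.8 ± 29.2, n = 5) followed with steps smaller than the larger SD of each neighbouring pair. Clusters 4 (1.49 ± 2.1, n = 2) and 5 (1.23 ± 0.934, n = 4) were lowest. The share of cells with an Abcc9 read after thinning ran from 68.1% in cluster 8 (60.8% to 74.8%) to 17.1% in cluster 5 (9.43% to 27.5%) and 14.3% in cluster 4 (3.05% to 36.3%). Over all fibroblast clusters 378 cells (27.9%) were positive for Abcc9, of which 17 (4.5%) were positive for Kcnj8 and 86% had no Kcnj8 read. Kcnj8 was rare in all these cells: 2.29% of them were positive for it and 9.68% had a read. Of the cells positive for Kcnj8, 54.8% were positive for Abcc9. Across fibroblast clusters with a read of both genes, r between them was -0.15 to 0.12.

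Kcnj8 had no order among fibroblast clusters beyond the spread between lines. Its mean was highest in clusters 9 (8.38 ± 11.9, n = 2), 7 (7.05 ± 12.7, n = 5) and 3 (6.38 ± 10.4, n = 4), and 0 reads were found in the 51 cells of cluster 11, which allows a share of cells with a read of up to 5.88% by a limit of 3 counts and 6.98% by the exact interval. The level rested on 31 positive cells with 13 to 330 reads and a median of 50, and these held 94.5% of all Kcnj8 reads of the fibroblast clusters. They came from 8 clusters, 4 lines and 6 plates. Of the 31 cells, 28 were positive for Pdgfra, 17 for Abcc9 and 14 for Ndufa4l2, and 1 each for Rgs5 and Myh11, with 0 for Rgs4, Higd1b or Cox4i2. A cluster 10 cell stood in the row or column of 22 of them, beside 830 of all 1354 fibroblast-cluster cells.

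Ndufa4l2 was found throughout the fibroblast clusters, from 75.4 ± 63.4 in cluster 2 (n = 5) to 23 ± 13.3 in cluster 8 (n = 5), and no step between neighbours in the order exceeded the larger SD. Cluster 8 was thus lowest for Ndufa4l2 and highest among fibroblasts for Abcc9, and over its cells the r between the genes was near 0. Ndufa4l2 shares 32 of its 1095 exon bases with Shmt2, a mitochondrial gene on the opposite strand, and the strand setting of the counting is not stated. Shmt2 was the second most alike gene to Ndufa4l2 in cluster 10 (r = 0.51 averaged over the lines), and over all 1354 fibroblast-cluster cells r between them was 0.23. Of the 589 fibroblast-cluster cells positive for Ndufa4l2, 95 (16.1%) had no Shmt2 read. How far reads were shared between these genes was not tested.

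The usual isoforms of the mitochondrial genes were present in both classes. Cox4i1 was at 312.5 ± 171.5 in cluster 10 and 189.2 ± 72.3 in the fibroblast clusters (SD, n = 4 lines), Ndufa4 at 60 ± 47.1 and 40.5 ± 29.5, and Higd1a at 22.4 ± 11.4 and 29.5 ± 6.53, with overlapping groups for all of them. Within lines, Cox4i1 was higher in cluster 10 in 4 of 4 lines and Ndufa4 and Higd1a in 2 of 4. Their log2 fold changes were 0.65 (SE 0.44), 0.62 (SE 0.81) and -0.75 (SE 1.03), 0 were called, 0 had an unadjusted p under 0.05 by edgeR and DESeq2 called 0. Per kb of exon, the level of Cox4i2 in cluster 10 was 207.7 ± 169.3 beside 201.6 ± 110.6 for Cox4i1, and that of Ndufa4l2 was 241.2 ± 178.1 beside 43.4 ± 34.1 for Ndufa4. Without the 3 C57BL6 cells the mean of Cox4i2 was 1.64 times lower and that of Cox4i1 1.3 times lower (154.9 ± 72.5 per kb), and Ndufa4l2 was at 157.5 ± 74.4 per kb beside 27.4 ± 14.2 for Ndufa4 (n = 3 lines). In the fibroblast clusters Ndufa4l2 stood at 52.5 ± 21.1 per kb and Ndufa4 at 29.3 ± 21.4, while Cox4i2 was at 0.175 ± 0.117 and Cox4i1 at 122.1 ± 46.6. Of 13 other cytochrome c oxidase genes 10 were tested and 0 were called by edgeR, with log2 fold changes of -3.84 (Cox6b2) to 1.41 (Cox8a), 2 at an unadjusted p under 0.05 and 1 called by DESeq2.

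Other genes of the same families and pathways were counted from lists, beside 2.28% of all genes tested called higher and 6.06% called lower by edgeR and 2895 genes called by DESeq2. Of 19 other RGS genes 9 were tested and 0 were called by edgeR, 3 had an unadjusted p under 0.05 and DESeq2 called 5. The values furthest from 0 were 5.45 (SE 2.63) for Rgs6, 4.74 (SE 1.98) for Rgs16 and -3.90 (SE 2.08) for Rgs12. Of 13 other inward rectifier potassium channel genes only Kcnj12, which encodes Kir2.2, passed the filter, which it did through cluster 10 alone, so its call as higher is not a result. It was at a level of 5.05 ± 4.86 in cluster 10 (n = 4 lines) with 3 positive cells and none among fibroblasts. Of 20 other genes named for pericytes in this tissue or elsewhere 14 were tested, 8 were called higher, 2 lower and 4 not called. Mcam, the adhesion molecule CD146, rose by a log2 fold change of 9.87 (SE 0.69) and Notch3, the Notch receptor of mural cells, by 9.23 (SE 0.73). The lower genes were Anpep at -5.03 (SE 1.51) and Cd248 at -2.22 (SE 0.43), and Atp13a5 and Slc6a20a had no read in cluster 10. Of 17 hypoxia genes 15 were tested, 2 were called higher, 2 lower and 11 not called, with a median log2 fold change of 0.26 beside -0.81 over all genes. Those higher were Ankrd37 at 6.00 (SE 1.47) and Epas1, which encodes HIF-2 alpha, at 4.54 (SE 0.51), and those lower were Adm at -4.69 (SE 1.36) and P4ha1, a collagen hydroxylase, at -3.68 (SE 1.10).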

How the data were processed

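Read counts per gene and cell were deposited by the authors for 1479 cells of the mouse bladder, each sequenced from its own Smart-seq2 library. Per the labels the processing notes name Bowtie, Bowtie2, Subread, bcl2fastq and featureCounts with GRCm38 (mm10), and the study's methods name TopHat2. The annotation release and the strand setting are not given in the sources used here. Lines, plates and clusters were taken from the labels. The deposited counts are raw, and reads of spike-in RNA were left out of the depth. Levels were scaled to 500000 reads, and shares of cells were taken after thinning to 50000 reads, which left out 6 shallower cells. No pair of cells had identical counts. Counts were summed per mouse line and class and fitted with edgeR 4.0.16 (R 4.3.3; TMM, filterByExpr, quasi-likelihood test) with line as a block, since the classes came from the same lines. P-values measure how far the difference between classes within a line varied from line to line, which may be technical. They were adjusted by Benjamini-Hochberg over all genes. DESeq2 1.42.0 was an alternative. On simulated counts with log2 fold changes of 3 and 4, larger than the thresholds for a call, 200 of 200 changed genes were recovered for cluster 10 with 0 false calls, and 200 of 200 for cluster 8 with 6. The named genes are the 7 members, the called or most changed genes of each list, and the 3 most alike genes of each member. Members and lists were chosen with earlier results of these data known.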

Additional observations from a re-analysis of the deposited data

Results flagged for a closer look

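Of 36 sets of 4 or 5 mouse lines, 10 had a line whose gap to its nearest neighbour passed Dixon's 95% value. Chance gives about 1 in 20 only for independent values with a normal spread. The levels here were skewed and often rested on few positive cells, and the sets overlapped. The count is thus not read as an excess. In cluster 10 the C57BL6 line, with 3 cells, stood at 510.2 for Kcnj8 (next 64.3) and at 577 for Abcc9 (next 35.7). Kcnj8 had 4 more such lines in fibroblast clusters, namely C57BL6 in cluster 2 (4.1, next 0.312), PdgfraGFP in cluster 6 (9.76, next 0.192), Cspg4dsRED in cluster 7 (29.4, next 5.68) and PdgfrbGFP in cluster 8 (9.84, next 0.094). The positive cells behind them numbered 1, 1, 1 and 8. Abcc9 stood apart in C57BL6 in cluster 3 (73, next 50.2) and in Acta2GFP in cluster 7 (67.9, next 14). Over all fibroblast clusters Rgs5 of Acta2GFP was at 6.93 (next 1.48), with 1 positive cell. Ndufa4l2 of Acta2GFP in cluster 3 was low, at 26.2 (next 66.1).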

How the results depend on the processing

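For cluster 10 against the fibroblast clusters the fit with line as a block called 1156 genes, the DESeq2 Wald test 2895, and fits without 1 line 438 to 885 (438 without Cspg4dsRED, 512 without PdgfrbGFP, 617 without Acta2GFP). The fit with no replicate block called 1474, and with the median gene at 0 it was 803, with 57.3% of calls higher against 27.3% without that shift. By line left out, 4 of the 7 genes were called without C57BL6, 5 without Cspg4dsRED or PdgfrbGFP and 6 without Acta2GFP. Over these settings the log2 fold change ran from 4.22 to 7.89 for Kcnj8 and from 1.79, under the threshold of 2, to 2.88 for Ndufa4l2, and from -1.40 to 1.63 for Abcc9. Pairing by line comes from the labels. For cluster 8 against clusters 1 to 4, 6, 7, 9 and 11, 3 genes were called, and 8 with median-of-ratios size factors, 24 with no filter, 702 with DESeq2, 0 with no replicate block, 8 with sums per plate and line, 25 with the median gene at 0 and 0 to 1 without 1 line. The causes were not tested. The Abcc9 level in cluster 8 was 251.2 among cells with no cluster 10 cell in the plate row or column. The share of cluster 10 cells with an Abcc9 read was 36.8% without thinning, 12.8% at 3 reads and 12% at 10 reads. For Rgs5 it was 55.2%, 36% and 35.2%, and for Ndufa4l2 52.8% at 3 reads and 51.2% at 10. The correlation of Kcnj8 with Abcc9 was 0.20 to 0.60 under all settings. The minimum of 10 reads and the values without the C57BL6 cells or plate 881s were chosen after seeing the data. With 3 to 5 lines, few cells per line and no molecular identifiers, small differences were not detectable.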

Other observations

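Markers of immune, epithelial and glial cells had low levels in both classes. The summed level of 4 immune genes was 1.35 to 21.3 over the lines of cluster 10 and 2.46 to 16.6 in the fibroblast clusters, that of 4 epithelial genes 0.0572 to 1.88 and 0.831 to 20.4, and that of 3 glial genes 0 to 13.8 and 0.0199 to 3. Among the tested genes of these lists edgeR called 0, with 0 at an unadjusted p under 0.05 and 0 called by DESeq2 for cluster 10 against the fibroblast clusters.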
